A study of Mus musculus with 477 samples.

Results

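The interferon-stimulated genes described here are 47 of the 21004 genes in a table of read counts from single mouse mammary cells. They were listed by name, as genes known to be induced by interferon, with earlier results of these data known. All 47 were listed in the table, and each had at least 1 read. They fall into 9 sensors and regulators, 5 genes of the ISG15 pathway, 20 antiviral effectors, 4 genes of the PARP and DTX3L family, 7 interferon-inducible GTPases and 2 genes for secreted proteins.

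Interferons are secreted proteins that warn neighbouring cells of infection. They bind receptors on the cell surface, and the JAK kinases behind these receptors activate transcription factors. Type I and type III interferons act mainly through a complex with IRF9 that binds the interferon-stimulated response element (ISRE). Interferon gamma acts mainly through the gamma-activated site (GAS), and it is a strong inducer of the GBP and IRG families of GTPases. The IFIT, OAS and MX families are classical targets of type I interferon.

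The study captured 312 luminal cells and 165 tumor cells from 11 female mice of a mixed C57BL/6 and 129/Sv background on Fluidigm C1 chips, which hold 1 cell per chamber. Mice of the group Br were MMTV-Cre Brca1 fl/fl, mice of the group 53 were MMTV-Cre Trp53 fl/+, and Br53 mice carried both sets of floxed alleles. The study's methods give Trp53 fl/+, whereas its legend for flow cytometry of mammary cells gives Trp53 fl/fl, so whether Trp53 was heterozygous or homozygous for the floxed allele in the luminal donors is not settled by the sources used here. MMTV-Cre, which is active mainly in mammary epithelium, was shared by all these strains. The luminal donors also carried the ROSA mT/mG reporter of Cre activity. Whether the tumor mice carried it is not settled by the sources used here. The prefix v marks virgin mice and p marks mice at day 12.5 of pregnancy, and the luminal donors were 3 to 4 months old. The suffix L marks luminal cells, sorted as CD24 high, CD29 low and reporter-positive from the fourth mammary glands after depletion of hematopoietic and endothelial cells, and T marks CD24+ cells from tumors of around 1 cm. Luminal cells came from v53L (40 cells), vBrL (35), vBr53L (39), p53L (36), pBrL-1 (71), pBrL-2 (38) and pBr53L (53), and tumor cells from BrT1 (47), BrT2 (37), Br53T1 (30) and Br53T2 (51). The group pBrL held 2 mice and every other group held 1, so that for most groups genotype, stage, chip and mouse cannot be told apart. No wild-type mouse was analysed here.

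Single cells held 170209 to 3550564 reads. The 6 luminal markers (Krt8, Krt18, Krt19, Epcam, Cdh1 and Cd24a) were all read in the 7 luminal mice, with a summed level of 8660 to 13700 CPM (reads of a gene per 1000000 reads of the mouse or cell), and in 3 of the 4 tumors, with 4669 to 6578 CPM. In BrT1 the sum was 846 CPM, with Krt19 and Cdh1 at 0. Of the mice, BrT1 also held the highest fibroblast sum (4955 CPM, of which Dcn was 4356) and the highest mesenchymal sum (9458 CPM). The immune markers summed to 277 CPM in pBr53L and to between 0.16 and 72.9 CPM in the other 10 mice. In pBr53L most of it lay in 1 cell, which held 21077 reads of Lyz2, a myeloid gene, and 2498 of Ptprc, the gene for the leukocyte antigen CD45. Without that cell the immune sum of pBr53L was 17.5 CPM.

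The letters of these binding elements were looked for in the promoters. RefSeq windows from 250 bases before to 50 after the transcription start (build GRCm38.p6) were matched for 36 of the 47 members. The ISRE was searched for as GAAANNGAAA and the GAS as TTCNNNGAA, each on both strands. An ISRE match lay in the windows of 18 members (50%) against 3.99% of all 27025 genes with a window, and a GAS match in those of 8 (22.2%) against 9.55%. A match is a description of the letters and does not show binding. By role, 5 of 6 GTPases with a window, 4 of 7 sensors and regulators, 7 of 15 antiviral effectors, 1 of 4 ISG15 pathway genes, 1 of 2 secreted genes and 0 of 2 PARP and DTX3L genes held an ISRE match.

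The upstream stretches of 11 members are shown as examples of how the matches are arranged in GTPase, antiviral and other member genes. Each stretch spans the matches that lie upstream of both the RefSeq and the GENCODE start, with up to 20 bases on each side, and the capitals mark ISRE and GAS matches, which can overlap each other. The GTPases are given first. Their stretches lie at Gbp3 chr3:142559979-142560025 (plus strand), Gbp7 chr3:142530210-142530312 (plus strand) and Igtp chr11:58199491-58199551 (plus strand). In Gbp7 and Igtp the first capitals are GAS matches and the last are an ISRE match, whereas Gbp3 holds 2 overlapping ISRE matches.
Gbp3: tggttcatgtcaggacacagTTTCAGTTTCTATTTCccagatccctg
Gbp7: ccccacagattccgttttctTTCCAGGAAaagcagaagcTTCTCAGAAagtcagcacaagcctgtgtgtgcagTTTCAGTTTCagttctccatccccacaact
Igtp: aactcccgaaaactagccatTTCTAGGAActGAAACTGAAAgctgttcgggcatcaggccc

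The next stretches belong to Isg15, the gene for the ubiquitin-like modifier, and to antiviral effectors. They lie at Isg15 chr4:156200855-156200916 (minus strand), Ifit1 chr19:34640765-34640833 (plus strand), Ifit3 chr19:34583353-34583436 (plus strand), Oas1a chr5:120907526-120907643 (minus strand), Rsad2 chr12:26456543-26456592 (minus strand) and Bst2 chr8:71537567-71537628 (minus strand). Isg15 holds 3 overlapping ISRE matches, Ifit1 and Ifit3 hold 2 each at a distance, and Oas1a and Bst2 hold 2 ISRE matches and 1 GAS match.
Isg15: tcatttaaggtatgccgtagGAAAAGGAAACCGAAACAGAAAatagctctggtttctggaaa
Ifit1: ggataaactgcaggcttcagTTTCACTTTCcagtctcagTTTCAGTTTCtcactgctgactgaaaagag
Ifit3: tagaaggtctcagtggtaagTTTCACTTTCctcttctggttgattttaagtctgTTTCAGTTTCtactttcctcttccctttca
Oas1a: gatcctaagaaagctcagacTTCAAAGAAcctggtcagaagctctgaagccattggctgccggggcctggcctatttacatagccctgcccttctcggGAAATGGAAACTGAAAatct
Rsad2: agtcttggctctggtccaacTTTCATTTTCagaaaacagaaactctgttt
Bst2: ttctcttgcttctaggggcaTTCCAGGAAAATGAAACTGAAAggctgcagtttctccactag

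The last pair shows the chemokine gene Cxcl10, whose stretch runs from 233 to 184 bases before the start and holds 1 ISRE match, and Irf1, the transcription factor gene, with a GAS match and no ISRE match. They lie at Cxcl10 chr5:92349073-92349122 (minus strand) and Irf1 chr11:53769904-53769952 (plus strand).
Cxcl10: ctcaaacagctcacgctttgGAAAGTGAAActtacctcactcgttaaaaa
Irf1: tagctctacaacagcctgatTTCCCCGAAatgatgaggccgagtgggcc

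3 mice stood high for the members as a group. The summed level of the 47 members was 5679 CPM in pBr53L, 4603 in Br53T1 and 3250 in Br53T2. It was 3194 CPM in p53L, 2813 in pBrL-2, 2716 in vBrL, 1886 in BrT1, 1686 in pBrL-1, 1384 in v53L, 995 in vBr53L and 473 in BrT2. Luminal and tumor mice overlapped over nearly their whole range. pBr53L was the highest of the 7 luminal mice for 24 members, where 10.4% of 12908 genes averaging 1 CPM or more were highest in it. Br53T1 was the highest of the 4 tumors for 22 members (24.3% of these genes) and Br53T2 for 20 (26.7%). BrT2 had no read for 16 members, and vBr53L had none for 10. At the depth of BrT2 this allows up to 0.0601 CPM each in the cells captured. Such a limit covers the counting of reads and not the choice of cells, so it does not bound the whole tumor.

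**Figure D1:**
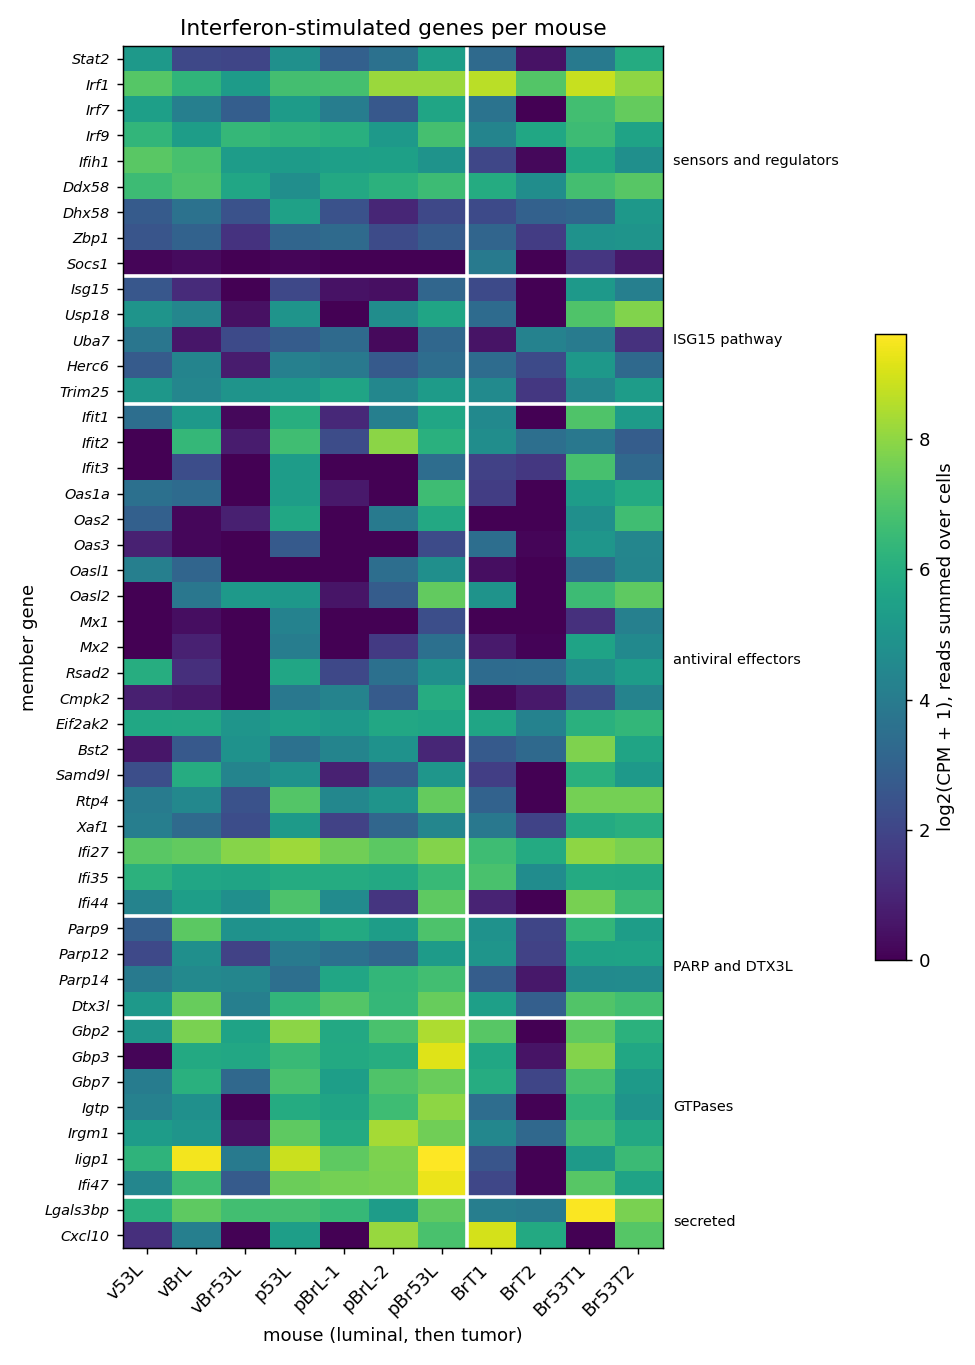
Level of each of the 47 members (rows, by role) in each of the 11 mice (columns, luminal then tumor), as log2(CPM + 1) of the reads summed over the cells of a mouse. The GTPases are brightest in pBr53L, with 2946 CPM in sum, and the BrT2 column is darkest, with 473 CPM over all members.

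These 3 mice stood further from the rest when cells rather than reads were counted. The median cell held a summed level of 3919 CPM in pBr53L, 3611 in Br53T1 and 2965 in Br53T2. In the other 8 mice the median cell lay between 371 CPM (BrT2) and 1614 CPM (p53L). The sums of p53L, vBrL, pBrL-2 and BrT1 were thus above those of their typical cells. In pBrL-2, 1 cell held 54.4% of all member reads, and without it the sum was 1334 CPM. The highest cell held 32.8% of the member reads in BrT1, 31.2% in vBrL and 23.4% in p53L. Without it the sums were 1295, 1935 and 2523 CPM. In pBr53L, Br53T1 and Br53T2 the highest cell held 11.3%, 12.2% and 8.74%, and the sums without it were 5169, 4188 and 3030 CPM.

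**Figure D2:**
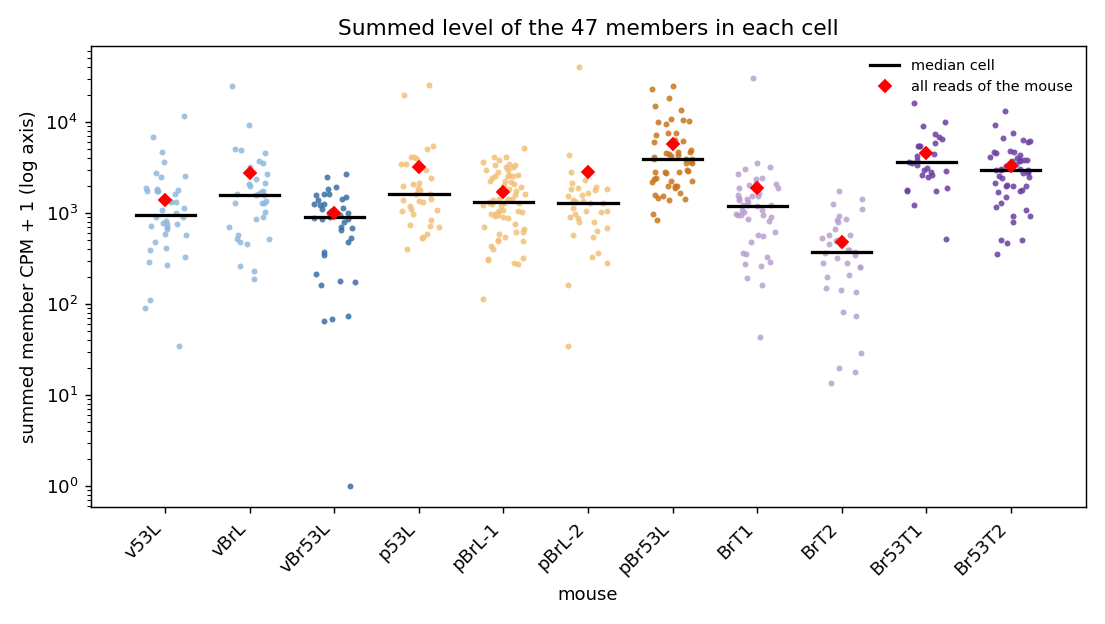
Summed level of the 47 members in each cell (points, CPM + 1, log axis) by mouse, with the median cell (black line) and the value over all reads of the mouse (red diamond). The median cells of pBr53L, Br53T1 and Br53T2 lie between 2965 and 3919 CPM, and single cells far above their neighbours are seen in pBrL-2 and BrT1.

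To ask how many cells carried the members at an equal depth, each cell was thinned to 100000 reads. The median cell then held reads of 22.5 members in Br53T1 and of 16 in both pBr53L and Br53T2. The median was 9 in p53L and pBrL-2, 8 in pBrL-1 and BrT1, 7 in vBrL, 6 in v53L, 5 in vBr53L and 3 in BrT2. At least 10 members were read in 29 of 30 Br53T1 cells (96.7%, exact 95% interval 82.8% to 99.9%), in 47 of 53 pBr53L cells (88.7%, 77% to 95.7%) and in 39 of 51 Br53T2 cells (76.5%, 62.5% to 87.2%). In the other luminal mice the share ran from 7.69% (vBr53L, 1.62% to 20.9%) to 47.2% (p53L, 30.4% to 64.5%), and these intervals did not overlap that of pBr53L. In the Br tumors it was 34% in BrT1 (20.9% to 49.3%) and 0 of 37 cells in BrT2 (0% to 9.49%, or up to 8.11% by a limit of 3 counts). In Br53T2 the median was 18 in the 27 cells that held a read of any of 6 leukocyte genes (Ptprc, Lyz2, Adgre1, Itgam, Itgax and Csf1r) and 9.5 in the other 24, which also held fewer genes (median 3369 against 4163), and the part of this in the Br53T2 level was not tested. These intervals cover counting error only and compare single mice, not conditions.

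The typical member showed the same split. The median share of cells with a read of a member was 46.7% in Br53T1, 32.1% in pBr53L and 31.4% in Br53T2, where the median over all genes was 30%, 20.8% and 21.6%. It was 19.4% in p53L, against 16.7% for all genes, and below the value for all genes in the other 7 mice, down to 2.7% against 21.6% in BrT2. In 7 of the 11 mice the number of members read in a cell rose and sank with the number of all genes read in it at a Spearman correlation over 0.5, as a description across 35 to 71 cells of a mouse. The correlation of the summed level with the depth of a cell lay between -0.27 and 0.30.

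**Figure D3:**
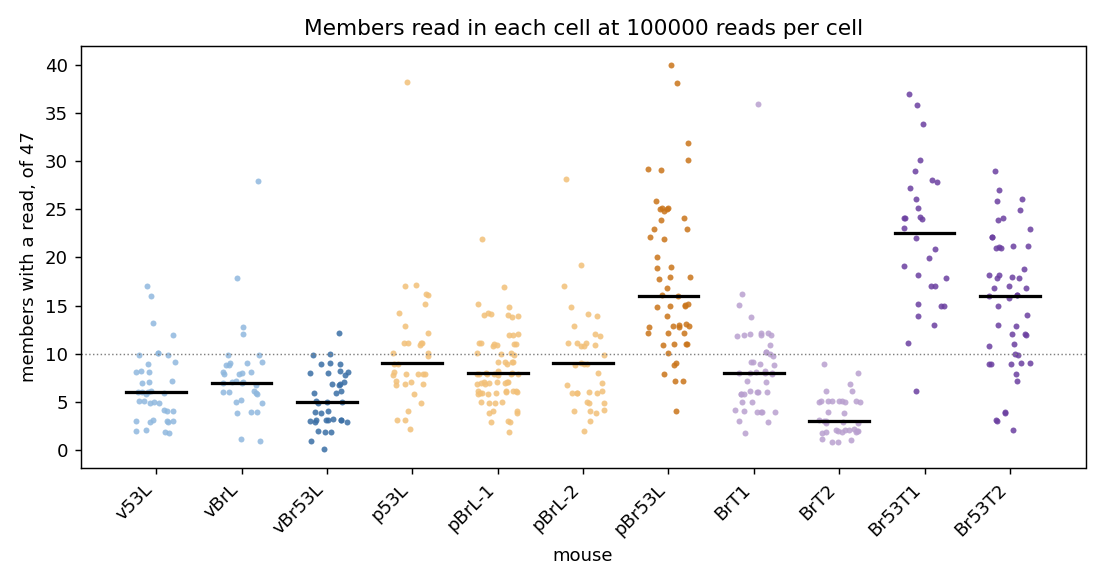
Number of the 47 members with a read in each cell after thinning to 100000 reads (points), by mouse, with the median (black line) and a dotted line at 10 members. Most cells of pBr53L, Br53T1 and Br53T2 lie above the dotted line, and no cell of BrT2 reaches it.

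The single high cells differed in which members they held. The highest pBrL-2 cell reached 40240 CPM, 31.3 times the median cell of that mouse. It was led by Irgm1 (7489 CPM), Cxcl10 (7093) and Ifit2 (5998). The highest BrT1 cell held 30504 CPM, of which Cxcl10 was 15264. In p53L the highest cell was led by antiviral effectors (17383 of 25218 CPM, with Ifit2, Ifi44 and Oas2 first), whereas the second was led by GTPases (14579 of 19520 CPM, with Iigp1 and Gbp2 first). The highest vBrL cell was a GTPase cell, with 20563 of 24587 CPM, and the highest v53L cell an antiviral effector cell, with 8735 of 11490 CPM and Rsad2 first. These cells were luminal by their markers in the luminal mice, with 4865 to 14086 CPM of the 6 luminal markers, and they held no read of the immune markers. The BrT1 cell held 3 immune-marker reads and 419 CPM of the luminal markers, against 846 in its tumor as a whole.

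Among the sensors and regulators, Irf1 had the highest mean over the 11 mice, though Ifih1, Ddx58 or Irf9 was higher in each virgin mouse. Irf1 encodes a transcription factor that interferon gamma induces early. It stood at 38.3 to 290 CPM in the luminal mice (median 108), and reached 448 in Br53T1, 394 in BrT1, 252 in Br53T2 and 131 in BrT2. The tumors and the luminal mice overlapped. Irf9, the DNA-binding part of the type I interferon complex, lay between 35.9 and 109 CPM in the luminal mice and between 19.4 and 94.7 in the tumors. Ddx58, which encodes the RNA sensor RIG-I, lay between 25.4 CPM (BrT2) and 137 CPM (Br53T2). Irf7, the amplifier of type I interferon production, was at 102 CPM in Br53T1 and 162 in Br53T2, above 11.7 in BrT1 and 0 in BrT2, and at 5.35 to 49.6 in luminal mice. Socs1, a feedback inhibitor of JAK signaling, was at or under 1.88 CPM in 10 mice and at 14.3 in BrT1.

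The ISG15 pathway attaches the ubiquitin-like ISG15 to proteins, and Usp18 encodes the protease that removes it. Usp18 was at 223 CPM in Br53T2 and 123 in Br53T1, and at most 49.7 in any other mouse, with 0 in BrT2 and pBrL-1. It was read in 34 of 51 Br53T2 cells and 15 of 30 Br53T1 cells, but in only 8 of 53 pBr53L cells, where the top 10% of the cells held 99% of its level. The high pBr53L mouse thus differed from the Br53 tumors in this gene. Trim25, a ubiquitin ligase of the RIG-I pathway, ranged from 1.94 CPM (BrT2) to 48.1 (pBrL-1), and Herc6, the mouse ISG15 ligase, from 0.65 to 34. Isg15 itself was low, at 36 CPM in Br53T1, 16.7 in Br53T2, 8.14 in pBr53L and at most 5.11 elsewhere.

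The 20 antiviral effectors summed to 1644 CPM in Br53T1, 1300 in pBr53L, 1277 in Br53T2 and 1158 in p53L. In the other 7 mice the sum lay between 134 CPM (BrT2) and 641 CPM (pBrL-2). Ifi27, a small mitochondrial membrane protein gene, was widely read. At least 1 read was found in 59.5% to 97.2% of the cells of each mouse, with luminal levels of 141 to 295 CPM and tumor levels of 57.2 to 255. Rtp4, a transporter gene with antiviral function, was read in 23 of 30 Br53T1 cells, 27 of 51 Br53T2 cells and 39 of 53 pBr53L cells, with levels of 193, 195 and 163 CPM. Its level was 131 CPM in p53L, at most 30.6 in the other luminal mice, 7.08 in BrT1 and 0 in BrT2. Ifi35 was among the flatter members, with luminal levels of 48.6 to 87.6 CPM and tumor levels of 24.8 to 116.

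Ifi44, an antiproliferative and antiviral gene, was at 201 CPM in Br53T1 and 93.4 in Br53T2, against 0.949 in BrT1 and 0 in BrT2. In luminal mice it was at 151 CPM in pBr53L, 121 in p53L and 1.77 to 40.7 in the other 5. Bst2, which encodes the virus-tethering protein tetherin, broke with the other effectors in pBr53L. It was at 217 CPM in Br53T1, where 28 of 30 cells held a read, and at 47.8 in Br53T2, but at 1.04 in pBr53L, where 4 of 53 cells did. Ifit1 was at 122.7 CPM in Br53T1 and at most 63.6 elsewhere, and Oas1a was at 97.1 CPM in pBr53L, 57.2 in Br53T2 and at most 40 elsewhere, with no read of either in BrT2. Oasl2 was at 157 CPM in pBr53L, 151 in Br53T2 and 94.5 in Br53T1, and at most 35.3 in the other 8 mice.

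PARP9 and DTX3L form a complex that enhances interferon signaling, and their genes stand head to head and share some exon bases (8% of Dtx3l exons), so reads there cannot be told apart if strand was not used. Dtx3l was at 167 CPM in pBr53L, 166 in vBrL and 126 in Br53T1, and was lowest in BrT2 (6.47). It was read in 29 of 30 Br53T1 cells and 44 of 53 pBr53L cells. Parp9 ran from 6.49 to 144 CPM in luminal mice and from 3.07 to 81.5 in tumors. Parp14, a mono-ADP-ribosyltransferase gene, was at 105 CPM in pBr53L and 82.1 in pBrL-2, and at 0.521 to 23.7 in the tumors.

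The GTPases made up the largest part of the pBr53L level. GBP and IRG proteins attack the vacuoles of intracellular pathogens. Gbp2, Gbp3 and Gbp7 lie side by side on chromosome 3, and Ifi47, Irgm1 and Igtp lie on chromosome 11. Summed, the 7 genes were at 2946 CPM in pBr53L, at 1130 to 1296 in p53L, vBrL and pBrL-2, at 599 in pBrL-1, and at 201 and 130 in v53L and vBr53L. In tumors they were at 845 CPM in Br53T1, 383 in Br53T2, 292 in BrT1 and 11.9 in BrT2. Iigp1 was at 784 CPM in pBr53L and 696 in vBrL, but 48 of 53 thinned cells held a read in pBr53L and 16 of 35 in vBrL. The top 10% of the cells held 52.8% of its level in pBr53L and 82.1% in vBrL. Ifi47 was at 646 CPM in pBr53L, 5.72 to 202 in the other luminal mice and 0 to 138 in tumors. Gbp3 was at 566 CPM in pBr53L and 229 in Br53T1, where 41 of 53 and 24 of 30 cells held a read, and at most 89.5 in the other mice. Gbp7 ranged from 3.01 CPM in BrT2 to 168 in pBr53L. Gbp2 was at 346 CPM in pBr53L, 245 in p53L and 207 in vBrL, and it had no read in BrT2. The GBP paralogs are close in sequence, and how reads matching several genes were treated is not given in the sources used here.

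Cells of pBr53L and of the Br53 tumors were therefore weighted differently between the classes. The 2 classes hold 7 and 20 genes of unlike exon length, and their sums were not scaled to length. Which sum is higher in a cell depends on this, so the counts serve to compare mice and not the classes. In pBr53L the median cell held 1672 CPM of GTPases and 789 of antiviral effectors, and effectors exceeded GTPases in 15 of 53 cells. In Br53T1 the medians were 569 and 1320 CPM, with effectors higher in 26 of 30 cells, and in Br53T2 they were 203 and 888 CPM, with effectors higher in 43 of 51. The pBr53L weighting was not particular to that mouse. In pBrL-1 the medians were 385 and 257 CPM, with effectors higher in 28 of 71 cells. Over all reads of a mouse, the GTPase sum was the higher one also in vBrL, p53L, pBrL-1 and pBrL-2. The effector sum was higher in v53L, vBr53L and every tumor. Across the cells of a mouse the 2 sums had a Spearman correlation of 0.44 in pBr53L, 0.56 in Br53T1 and 0.40 in Br53T2, and between 0.10 and 0.44 in the other 8 mice. These correlations describe cells that share a library and a depth. In vBr53L, 18 of 39 cells had no GTPase read, and in BrT2 31 of 37.

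**Figure D4:**
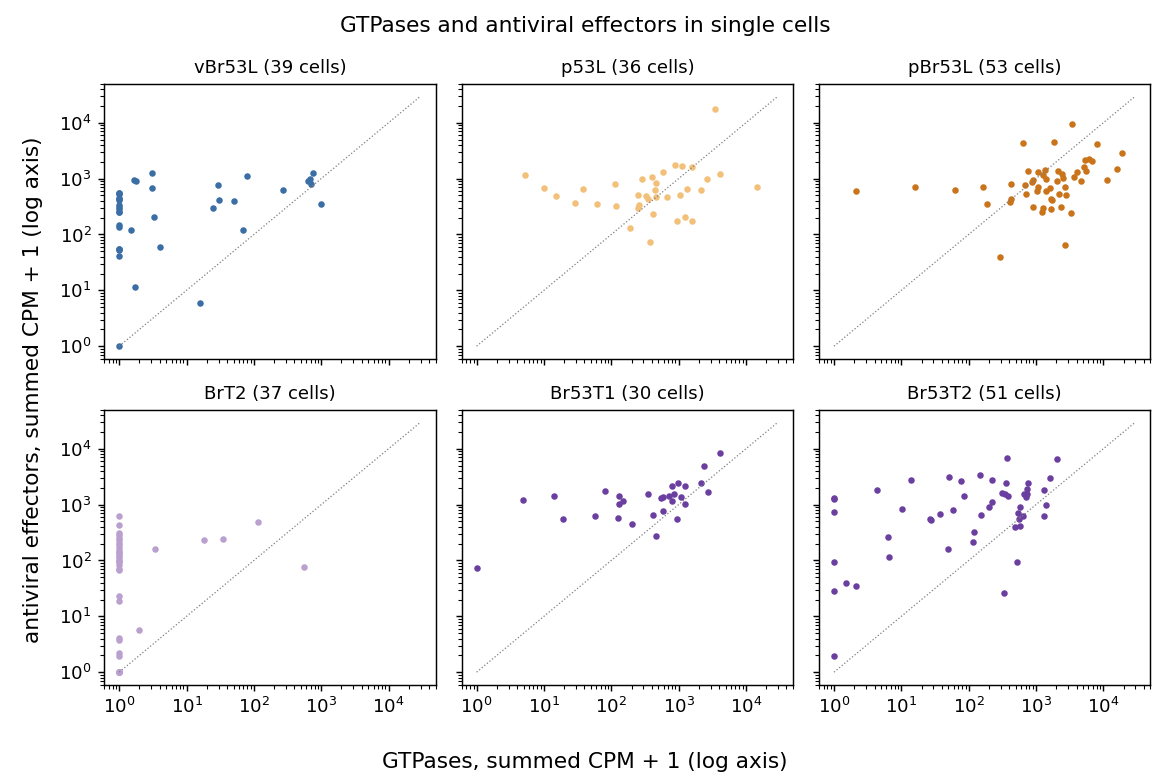
Summed GTPase level (x, CPM + 1, log axis) and summed antiviral effector level (y, CPM + 1, log axis) in each cell of 6 mice, with a dotted line where they are equal. Most pBr53L cells lie right of the line (effectors are higher in only 15 of 53 cells), and most Br53T1 and Br53T2 cells lie left of it. The sums were not scaled to exon length.

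The 2 secreted genes differed from each other. Lgals3bp encodes a glycoprotein that binds galectins. It was at 751 CPM in Br53T1 and 203 in Br53T2, against 16.4 in BrT1 and 15.2 in BrT2, and at 38.8 to 153 in luminal mice. It was read in 29 of 30 Br53T1 cells. Cxcl10 encodes a chemokine that attracts T cells. It was at 505 CPM in BrT1, 57.1 in BrT2 and 136 in Br53T2, and had no read in Br53T1. At the depth of Br53T1 this allows up to 0.0547 CPM in the cells captured, by the counting of reads alone. The highest BrT1 cell carried much of the BrT1 level, yet 25 of 47 BrT1 cells held a Cxcl10 read. In pBrL-2 it was at 278 CPM, read in 3 of 38 cells. Per kilobase of exon, the mean level over the 11 mice was highest for Ifi27 (124 CPM per kilobase), followed by Ifi47 (56.1), Lgals3bp (53.9), Irf1 (51.9) and Gbp2 (50.7), and lowest for Socs1 (0.537).

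The genes upstream of the members gave a flatter picture. The 10 receptor and kinase genes summed to between 511 CPM (p53L) and 834 CPM (Br53T2), with 676 in pBr53L. Of 8 interferon genes in the table, 6 had a read in any mouse, and they summed to at most 14.3 CPM (vBr53L) and to 0.0397 CPM in pBr53L. The genes for interferon beta and gamma (Ifnb1 and Ifng) were looked for but were not in the table. Their level in any mouse is therefore not known here. The 10 antigen processing genes, which interferon also induces, summed to 16235 CPM in pBr53L, to 8236 to 12191 in the rest of the luminal mice, and to 2895 to 9969 in the 4 tumors. None of the genes in these lists passed an adjusted p of 0.05 in any of the 6 edgeR comparisons. Most interferon genes had too few reads to be tested. Only 1 was tested in each comparison, save 2 in that of the double mutant effect between tumor and luminal mice.

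Outside the list, the genes named here for a cell-to-cell pattern most like the summed member level were H2-Q10, B2m, Phf11d, Lgals9, H2-Q4, Cep19, Ubd, H2-Q1 and Psmb9. The likeness was the median over mice of the Spearman correlation across the cells of a mouse, and it ran from 0.231 to 0.269 for these genes, against a median of 0.0205 over the 7936 genes that could be ranked. Ubd, a ubiquitin-like gene, was at 820 CPM in pBr53L and at most 214 in the other mice. These correlations are weak and rest on sparse counts.

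The comparison of virgin with pregnant double mutant cells could be made within a chip, since vBr53L and pBr53L were loaded on the same one. Here 43 of 47 members were higher in pBr53L, with a median difference of 2.85 on the log2(CPM + 1) scale against 0.00169 over all genes. At least 4-fold higher were 33 members, against 9.73% of all 12908 genes. The other chip that held both stages carried p53L and v53L, and there 33 members were higher in p53L, 20 of them at least 4-fold against 11% of all genes, although leaving out the highest p53L cell lowered its sum from 3194 to 2523 CPM. For scale, pBrL-1 and pBrL-2 are mice of the same group on different chips, and 2 members were at least 4-fold higher in pBrL-1 (4.05% of all genes) and 8 at least 4-fold lower (4.67% of all genes). Each of these pairs sets 1 mouse against 1 and has no replicate check. In pBr53L, 46 of 53 cells held no read of the 6 leukocyte genes, and over these cells the member sum was 5961 CPM.

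Over mice, the first test asked whether pregnancy goes with the members across genotypes (4 pregnant against 3 virgin luminal mice, genotype as covariate). edgeR tested 46 members and called 0, against 0.0146% of all genes, and 7 members reached an unadjusted p under 0.05, 6 of them with a positive and 1 with a negative fold change, against 8.99% of all genes. The negative one was Ifih1, which encodes the RNA sensor MDA5. It shared the lowest adjusted p of the members (0.48) with Cmpk2, whose fold change was positive. Ifih1 was at 141, 112 and 38.8 CPM in v53L, vBrL and vBr53L and at 37.4, 41.9, 42.8 and 29.9 CPM in p53L, pBrL-1, pBrL-2 and pBr53L. DESeq2 called 4 (Oas2, Cmpk2, Irgm1 and Ifi47), against 8.09% of all genes. The median log2 fold change of the members was 0.99 against 0.14 for all genes, and that of the GTPases was 2.65. In 5 members, Cmpk2, Gbp3, Igtp, Irgm1 and Ifi47, all pregnant mice lay above all virgin mice, against 6.11% of all genes. In none did all pregnant mice lie below, against 5.24%. Ifi47 was at 20.6, 96.9 and 5.72 CPM in v53L, vBrL and vBr53L, and at 173, 192, 202 and 646 CPM in p53L, pBrL-1, pBrL-2 and pBr53L. The nearest mice of the groups were vBrL and p53L. The log2 fold change was 2.94 ± 1.01 (SE), with an edgeR adjusted p of 0.48, and it was 1.87 without pBr53L, 1.88 without vBr53L and 4.99 without vBrL. Irgm1 was at 39, 31.7 and 0.397 CPM in the virgin mice and at 149, 57.9, 315 and 184 in the pregnant mice (log2 fold change 3.50 ± 1.31, edgeR adjusted p 0.51, and 2.32 to 5.33 with 1 mouse left out). Without the highest cell of each mouse by summed member level, Irgm1 was at 31.8 CPM in pBrL-2, under the 39.3 of v53L. Gbp3 overlapped as well without these cells, whereas Cmpk2, Igtp and Ifi47 did not. When instead the cell highest in the gene itself was left out of each mouse, none of the 5 overlapped, with Irgm1 at 20.2, 7.65 and 0 CPM in the virgin mice and at 83.9, 32.6, 31.8 and 148 in the pregnant mice. Cmpk2, a mitochondrial nucleotide kinase gene, was at 0.793, 0.519 and 0 CPM in the virgin mice and at 13.2, 18.9, 5.74 and 61.4 in the pregnant mice (5.62 ± 1.87, edgeR adjusted p 0.48, and 4.40 to 7.88 with 1 mouse left out). Igtp was at 17.8, 27.1 and 0.0588 CPM and at 59.6, 48.3, 99.2 and 252 CPM, in the same order. In both genes the lowest pregnant mouse lay above the highest virgin mouse. The median over members was unstable, at 0.05 without pBr53L or without vBr53L, 0.49 without v53L or without p53L, 1.64 without pBrL-1, 1.56 without pBrL-2 and 2.88 without vBrL. Over the 4 mice of the chips with both stages alone, with chip as block, it was 2.91, and edgeR again called 0 members (8 of all genes). Chip and genotype are the same split in these 4 mice.

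The second test compared Br53 tumors with Br tumors. Both Br53 tumors lay above both Br tumors for 35 of 47 members, against 19% of all genes, and both lay below for 0 members, against 12.9%. The median log2 fold change was 2.80, that of the antiviral effectors 4.38, and that of all genes -0.00. The median over members was 4.804 without BrT1 and 2.04 without BrT2. Without the highest cell of each tumor by summed member level, all 35 non-overlapping members remained so, and without the cell highest in the gene itself 34 did, since Ifit1 then overlapped (4.57 CPM in Br53T2 against 10.4 in BrT1). edgeR nevertheless called 0 members, as it called 0% of all 13477 genes with 2 mice an arm. An unadjusted p under 0.05 was reached by 13 members, all higher in Br53 tumors, against 3.98% of all genes. DESeq2 called 8 members (Ifit3, Oas2, Oasl1, Mx1, Mx2, Bst2, Ifi44 and Lgals3bp) against 2.34% of all genes.

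The antiviral effectors stood furthest apart. Oas2, an RNA-activated synthetase gene, was at 26.8 and 99.7 CPM in Br53T1 and Br53T2, and had 1 read in BrT1 and none in BrT2 (edgeR adjusted p 0.68). Mx1, a dynamin-like GTPase gene, was at 1.49 and 17.3 CPM with no read in either Br tumor, which makes it at least 439-fold higher over a floor of 3 reads for the pair (edgeR adjusted p 1.00). The bound was 70-fold for Br53T1 alone, and 44.3-fold for both when the cell highest in Mx1 was left out of each. These bounds cover the counting of reads in the captured cells and not the choice of cells. Mx2 was at 47.1 and 22.6 CPM against 0.629 and 0.0601 (log2 fold change 6.64 ± 1.74). Oasl1 was at 9.6 and 19.8 CPM against 0.276 and 0 (6.70 ± 2.61), and Ifi44 differed by 8.26 ± 2.17. The Br side of these values rests on few reads, 57 and 3 for Mx2, 25 and 0 for Oasl1 and 86 and 0 for Ifi44 in BrT1 and BrT2, and without BrT1 the fitted values depend on the prior count for Oasl1 and Ifi44. Lgals3bp differed by 4.84 ± 0.92 and Bst2 by 4.10 ± 1.03. For Mx2, Oasl1, Ifi44, Lgals3bp and Bst2 the edgeR adjusted p was 1.00. Irf1, Cxcl10, Ifi35 and Ifit2 were among the 12 members whose tumors overlapped.

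**Figure D5:**
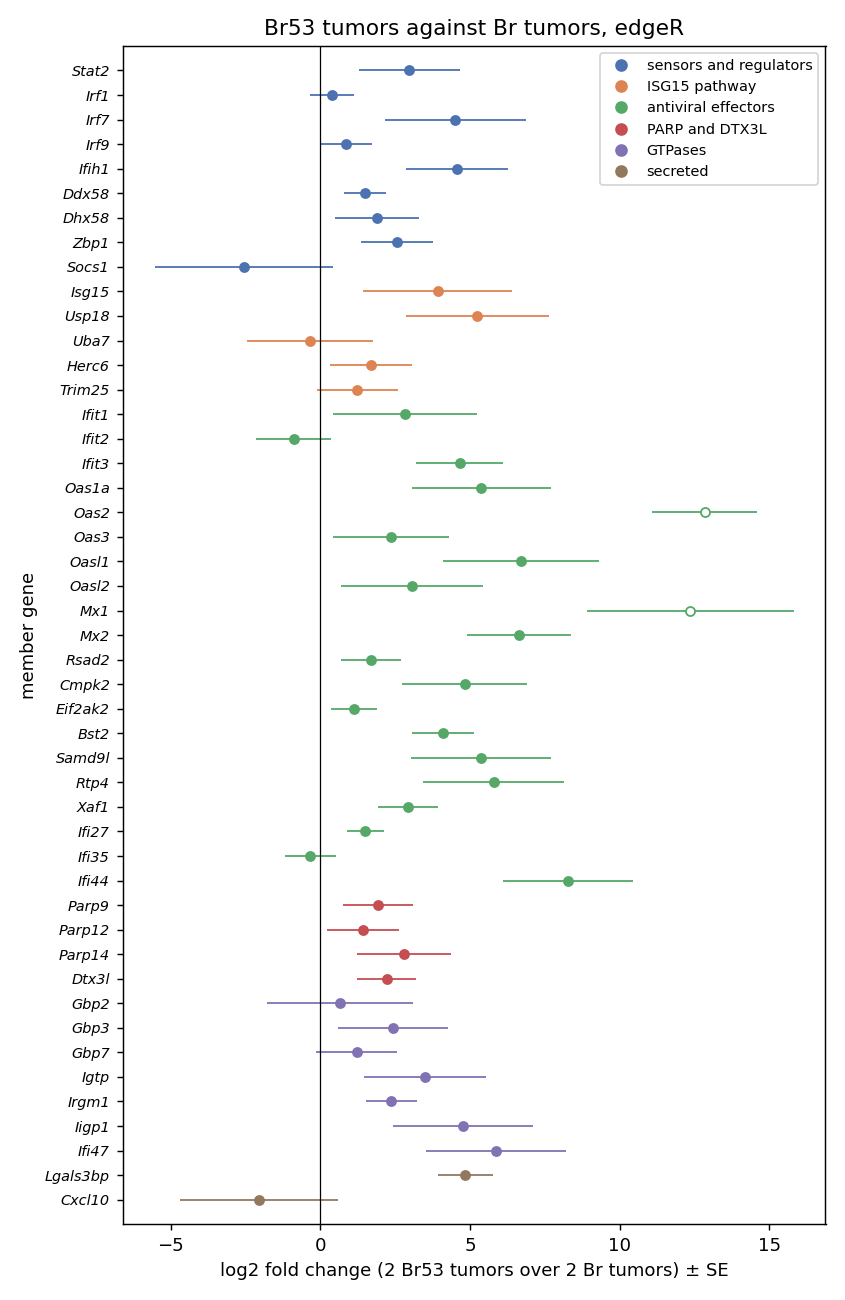
Difference of each member (rows) between the 2 Br53 tumors and the 2 Br tumors as an edgeR log2 fold change (x) with its SE, coloured by role. Points right of 0 are higher in Br53 tumors. Open points (Oas2, Mx1) have at most 1 read in the Br tumors, so that their place depends on the prior count. Of the 47 members 42 lie right of 0, with a median of 2.80.

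Other features of the tumors moved with this contrast. The mesenchymal markers summed to 9458 and 6542 CPM in BrT1 and BrT2 and to 159 and 569 in Br53T1 and Br53T2, and the luminal markers to 846 and 4669 against 5780 and 6578. The basal markers were at 5193 CPM in Br53T2 and at most 282 in the other tumors. Each tumor was on a different chip (that of Br53T2 also held pBrL-2), so tumor, chip and genotype cannot be told apart. In Br53T2, 27 of 51 cells held a read of the 6 leukocyte genes, mostly Csf1r at a median of 2 reads a cell in all. The member sum of the other 24 cells was 2633 CPM, against 3250 over all Br53T2 cells. In Br53T1 only 3 of 30 cells held such a read, and the other 27 had a median of 21 members. The part of these features in the contrast was not tested.

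Across luminal and tumor mice together, 4 double mutant mice were set against 5 Brca1 mutant mice with tissue as covariate. edgeR called 0 of 47 members and 0% of all genes, and DESeq2 called Ifi44 alone, against 0.816% of all genes. An unadjusted p under 0.05 was reached by 9 members, all higher in the double mutant, against 4.09% of all genes. The median log2 fold change was 1.74 against 0.00 for all genes. In Oasl2 and Ifi27 all double mutant mice lay above all Brca1 mutant mice, against 0.803% of all genes, and in no member did they all lie below (0.42%). Ifi27 was at 232, 225, 255 and 205 CPM in vBr53L, pBr53L, Br53T1 and Br53T2, and at 157, 183, 146.7, 98.7 and 57.2 in vBrL, pBrL-1, pBrL-2, BrT1 and BrT2. The difference was small but without overlap (log2 fold change 1.00 ± 0.30, edgeR adjusted p 1.00). When the cell highest in Ifi27 was left out of each mouse, Br53T2 fell to 156 CPM, under the 175 of pBrL-1. Oasl2 in vBr53L rested on 1 cell, without which it was at 1.69 CPM. The median over members was 2.44 without vBr53L, 1.35 without Br53T1 and 1.37 without BrT2, and lay between these values without any other mouse.

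A term for a different double mutant effect in tumor and luminal mice gave 0 called members against 0.00664% of all genes by edgeR, and 2 (Ifih1 and Lgals3bp) against 2.92% by DESeq2. At an unadjusted p under 0.05 stood 5 members, against 5% of all genes. The median difference was 2.26 with all mice and ran from 1.27 to 5.28 with 1 mouse left out (1.27 without vBr53L, 1.31 without BrT2, 1.32 without vBrL, 4.27 without BrT1 and 5.28 without pBr53L).

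Tumors as a whole did not stand apart from the 5 Brca1-deficient luminal mice. edgeR called 0 of 47 members against 0.609% of all genes, DESeq2 called 0 against 6.44%, and 3 members (Socs1, Parp14 and Iigp1) reached an unadjusted p under 0.05 against 13.8% of all genes. No member had all tumors above (5.01% of all genes) or all tumors below (2.51%) the luminal mice. The median log2 fold change was 0.38 and that of the GTPases -1.50. The median over all members was -0.26 without Br53T1, -0.22 without Br53T2 and 1.11 without pBr53L, and between 0.15 and 0.62 without any other mouse.

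Brca1-deficient luminal mice (5) were last compared with the 53 mice (2), with stage as covariate. edgeR called 0 of 46 members and 0% of all genes, and DESeq2 called Rsad2 against 4.1% of all genes. Only 1 member, Rsad2, reached an unadjusted p under 0.05, against 5.97% of all genes. Rsad2, which encodes the antiviral enzyme viperin, was at 63.4 and 50.9 CPM in v53L and p53L and at 1.44, 0, 3.3, 10.6 and 26.9 CPM in vBrL, vBr53L, pBrL-1, pBrL-2 and pBr53L. All Brca1-deficient mice lay below (log2 fold change -4.93 ± 1.87, edgeR adjusted p 0.78, with -2.10 without v53L and -6.58 without p53L), as did 3.12% of all genes. The p53L level rested on 1 cell. Without the highest cell of each mouse by summed member level Rsad2 was at 20.3 CPM in v53L and 0 in p53L. As pBr53L was then at 27.6, the groups overlapped. Without the cell highest in Rsad2, v53L stayed at 20.3 CPM, above the 11.2 of pBr53L, but p53L was at 0, so the groups overlapped again. Parp14 was the member with all Brca1-deficient mice above, as were 8.21% of all genes (1.47 ± 0.69, edgeR adjusted p 0.78). Its log2 fold change was 0.45 without p53L and 2.71 without v53L, and the groups overlapped when the cell highest in Parp14 was left out of each mouse.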

How the data were processed

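Libraries of 312 luminal and 165 tumor cells (C1, SMARTer, Nextera XT) were analysed. Per the labels and the study's methods, the authors trimmed the reads with sickle and Trim Galore 0.4.1, aligned them to mm10 with STAR 2.5.3a and counted reads per gene with Subread 1.5.3. The deposited values are raw counts without molecular identifiers, so PCR copies are counted separately and intervals cover counting error only. The annotation, the use of strand and the treatment of multi-mapping reads are not given in the sources used here. Doublets were inspected by microscope by the authors and not called again. No 2 cells had identical values. Some results are not reported here.

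The members, their roles and the other lists were chosen with earlier results of these data known. The mouse was the replicate. Whether mice of a group share litters is not stated. Counts were summed per mouse and fitted over the whole table with edgeR 4.0.16 (R 4.3.3, quasi-likelihood test, filterByExpr, TMM), with Benjamini-Hochberg adjustment over all genes and calls at an adjusted p under 0.05. SE is the absolute log2 fold change divided by the square root of F. Levels are CPM of the summed counts, and cells were thinned to 100000 reads (no cell was shallower). The edgeR step was tried on simulated counts with the same dispersion for all genes. This was done only for tumors against luminal mice and for double mutant against Brca1 mutant mice. It does not show how the test performs on counts carried by single cells or in the other comparisons. Exon lengths and positions came from GENCODE vM21 (GRCm38) and promoters from RefSeq (GRCm38.p6).

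Named with values were the 3 members of each role with the highest mean CPM, members called, and the 5 with the largest difference among those whose arms did not overlap. Other members and cells, as well as the leukocyte genes, were singled out after their values were seen. The fits were repeated with DESeq2 1.42.0, with RLE scaling, without the filter on low counts, on cells with at least 2000 genes, with limma 3.58.1 on mean CPM over cells, without each mouse in turn and with pregnant luminal mice only. Levels were also taken as the mean or median over cells, and thinning was repeated at 50000 reads. Leaving out the highest cell (by summed member level or by the gene itself) or cells with a leukocyte-gene read, and a chip block for stage, were added after seeing the data.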

Additional observations from a re-analysis of the deposited data

Results flagged for a closer look

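Samples standing far from the others of their kind (Dixon's test on log2(CPM + 1)) were looked for in 70 sets of values, and 3 were found. Chance alone flags about 1 in 20 sets, so 3 of 70 is no more than chance gives. Gbp2 was at 0 CPM in BrT2, where the nearest tumor held 69.4 CPM. Gbp3 was at 0.0992 CPM in v53L, where the nearest luminal mouse held 53.1 CPM. Irgm1 was at 0.397 CPM in vBr53L, where the nearest luminal mouse held 31.7 CPM. All 3 are GTPase genes, and each was low in a different mouse.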

How the results depend on the processing

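With all mice and edgeR, 0 members were called in each of the 6 comparisons, and RLE size factors, cells with at least 2000 genes and limma on mean CPM over cells also gave 0. DESeq2 called 4 members for pregnancy, 8 for Br53 against Br tumors, 1 each for the double mutant over both tissues and for Brca1 deficiency, 2 for the interaction and 0 for tumors against luminal mice. Without the low-count filter edgeR called 10 for pregnancy, 13 for Br53 against Br tumors and 8 for the interaction, while the calls over all genes rose to 366, 295 and 281 from 2, 0 and 1. Leaving out each mouse gave 0 to 12 called members for Br53 against Br tumors (12 of 52 genes called in all without BrT1, 3 of 228 without BrT2, which leave 1 Br tumor assumed to vary like the others) and 0 in the other 5 comparisons. The cause of these differences was not tested. Replicate numbers pair no mice. With chip as block, over the 4 mice of the chips holding both stages, 0 members were called for pregnancy.

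Thinning to 50000 reads gave medians of 18.5 members a cell in Br53T1 and 14 in pBr53L and Br53T2, and 3 to 8 in the other mice. Precision is limited by 1 mouse in most groups and by 30 to 71 cells a mouse. The 3 mice with the highest median cell also had the 3 highest sums once the highest cell was left out of each mouse. This did not hold when cells with a leukocyte-gene read were left out. Br53T2 was then at 2633 CPM, below p53L (3194), pBrL-2 (3029) and vBrL (2724).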

Other observations

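Some members were read in a few cells of a mouse and not in the rest, also at high levels of the mouse as a whole. The median over members of the level held by the top 10% of the cells was 59.8% in Br53T1, 75.2% in pBr53L and 83.8% in Br53T2, and between 93.7% and 100% in the other 8 mice. Across cells, the summed member level and the summed level of the antigen processing genes had a Spearman correlation of 0.63 in Br53T1, 0.47 in pBr53L and 0.45 in Br53T2, and between 0.04 and 0.38 in the other mice, as a description of cells that share a library.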
